A study of Mus musculus with 9 samples.

Results

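Gene expression in tumours of a mouse model of WNT medulloblastoma, made without added MYC, was compared with that of normal cerebellum. The comparison takes 6 of the 9 RNA sequencing libraries of the series and all 24444 gene symbols of its count table. Medulloblastoma is a tumour of the cerebellum and brainstem. The study set tumours with a stabilised MYC protein, MycT58A, beside tumours without it, and the 3 libraries of MycT58A tumours enter only where stated.

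The 3 controls were normal cerebellum of CD1-nude mice, a strain of mice that lacks a thymus and therefore mature T cells. The 3 tumours grew in the cerebellum of CD1-nude hosts from implanted cells of mice that carried Blbp-Cre, the Ctnnb1 allele with loxP sites around exon 3 on both copies, the Trp53 flx/flx alleles and Pik3ca E545K. Their genotype label adds EV, read here as empty vector. Blbp is another name of Fabp7, so Cre was driven by the promoter of a gene of neural progenitors and glia. Loss of exon 3 removes the residues through which beta-catenin is marked for destruction, loss of Trp53 removes the p53 protein, and E545K activates the catalytic subunit of PI3 kinase. Regions positive for green fluorescent protein were dissected from the tumours, so host cells within those regions were sequenced too. The labels do not say whether the 3 tumours came from separate cell preparations, and p-values therefore measure the spread between these libraries, which may be technical. One protocol line speaks of control cortex whereas the source label says cerebellum, and the marker genes given further on were those of cerebellum.

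In the absence of a WNT signal, a destruction complex of Axin, Apc and the kinases Gsk3b and Csnk1a1 marks beta-catenin for degradation. When the signal arrives, or when exon 3 is missing, beta-catenin accumulates, enters the nucleus and activates genes with the DNA-binding factors Tcf7, Tcf7l1, Tcf7l2 and Lef1. Many of the genes it activates, Axin2 and Notum among them, act back to restrain the pathway. WNT medulloblastoma of patients is known for activating changes in exon 3 of this gene, for secreted WNT antagonists and for an origin in progenitors of the dorsal brainstem.

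Levels are given in CPM, a gene's counts relative to the library's total, after scaling by trimmed mean of M values, and in each sentence the values follow replicates 1 to 3. They are not divided by gene length, so they compare libraries and not genes. Total counts lay between 21154342 and 24780263 in the controls and were 29701006, 22012375 and 16631523 in the tumours. A gene was called changed at a Benjamini-Hochberg adjusted p under 0.05 in edgeR's quasi-likelihood test, and fold changes are those of that fit. The tumours varied more than the controls: the SD of log2 CPM of the median gene was 0.63 in the tumours and 0.17 in the controls, and it was larger in the tumours for 90.2% of genes.

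The tumours differed from cerebellum in a large part of the genes tested. Of 14754 genes tested, 3632 were called higher in the tumours (24.6%) and 3373 lower (22.9%), 47.5% in all, and these shares are the background against which the gene groups below are read. Another measure, whether the 3 tumours and the 3 controls overlap, gave 30.7% of genes with every tumour above every control and 32.6% with every tumour below, 63.3% together. The decreases were the larger changes: the median gene called lower was 7.13-fold lower and the median gene called higher 4.14-fold higher, and 1611 genes fell at least 8-fold against 1077 that rose as much. Leaving out 1 control reduced the calls to 4073, 4103 and 4240 for replicates 1, 2 and 3. In a piece of tissue, fewer cells of a type and less RNA per cell cannot be told apart, and this holds for every decrease and increase given here.

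**Figure D1:**
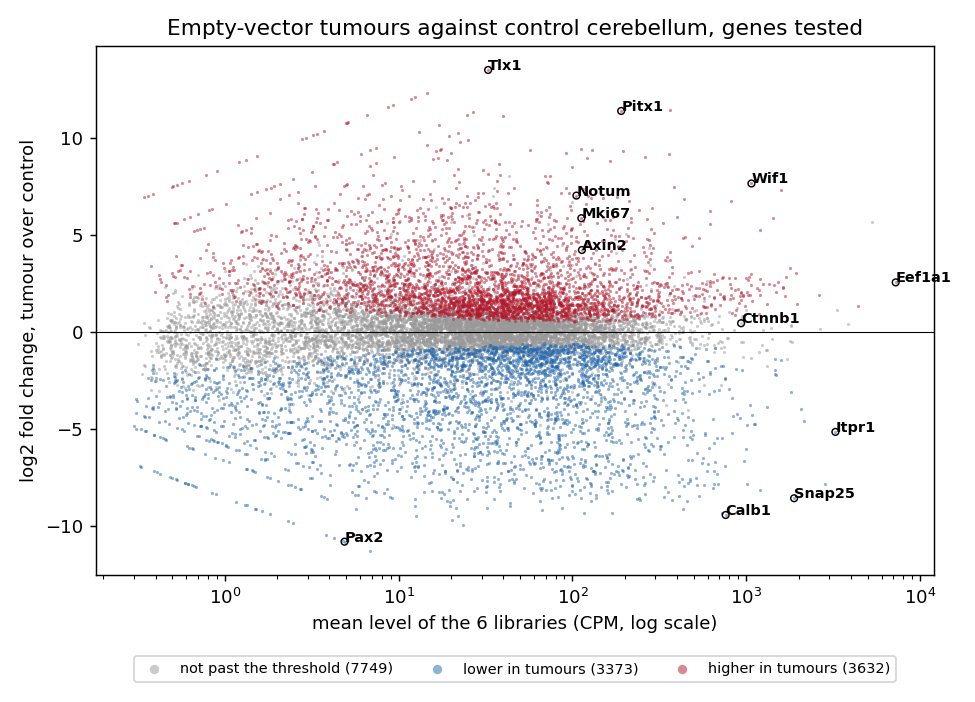
Change of each of the 14754 genes tested against its mean level. The x axis is the mean CPM of the 6 libraries on a log scale, the y axis the log2 fold change of tumours over controls, and each point is 1 gene, red where called higher (3632), blue where called lower (3373) and grey otherwise. Ctnnb1 lies near 0, Wif1 and Pitx1 lie far above it, and Snap25, Calb1 and Pax2 far below.

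The engineered genes came first. Ctnnb1, which encodes beta-catenin (chr9:120929216-120960507, mm10), was at 761, 736 and 844 CPM in the controls and 1049, 1123 and 1084 CPM in the tumours. Every tumour lay above every control, but the 1.39-fold difference did not pass the test (log2 fold change 0.48, SE 0.24, edgeR adjusted p = 0.141). Counts per gene cannot show whether exon 3 was deleted. Trp53 (chr11:69580359-69591873) was at 13.9, 13.7 and 17.8 CPM in the controls and 5.32, 9.65 and 6.34 CPM in the tumours. The groups did not overlap, and the transcript was 2.13-fold lower (log2 fold change -1.09, SE 0.34, edgeR adjusted p = 0.0387). Pik3ca (chr3:32397671-32468486) was at 132, 135 and 136 CPM in the controls and 202, 96.8 and 81.5 CPM in the tumours, with 1 tumour above the controls and the other two below them, and it was not called (log2 fold change -0.08, SE 0.37, edgeR adjusted p = 0.86). The E545K change cannot be seen in gene counts either. The call of Trp53 was lost when any 1 control or tumour replicate 1 or 3 was left out, with limma-voom and a variance weight per group and against a minimum fold of 1.5. Ctnnb1 passed the test with all 9 libraries in the fit and with DESeq2.

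Fabp7, the gene whose promoter drove Cre, stood at 107, 121 and 151 CPM in the controls and 11.2, 16.1 and 17.5 CPM in the tumours. All 3 tumours were far below the controls, an 8.45-fold fall (log2 fold change -3.08, SE 0.28, edgeR adjusted p = 0.000576). Myc (chr15:61985391-61990374), a growth-promoting transcription factor and a known beta-catenin target, was at 0.959, 1.63 and 32.7 CPM in the controls and 371, 20.6 and 789.6 CPM in the tumours. Tumour replicates 1 and 3 were far above all controls, tumour replicate 2 lay below control replicate 3, and the difference did not pass the test (log2 fold change 5.07, SE 1.85, edgeR adjusted p = 0.0611). Control replicate 3 was the one control above 2 CPM. Without it the fold change of Myc was 300.1 and the gene was called, as it was with all 9 libraries in the fit, with DESeq2, with limma-voom and a variance weight per group, and without tumour replicate 2.

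The targets and feedback genes of beta-catenin rose as a group. Of 28 genes on the list, 26 were tested, 20 were called higher and 0 lower, the median member being 11.6-fold higher, against 24.6% of all genes called higher. Their levels summed to 263, 335 and 383 CPM in the controls and 6625, 13926 and 6303 CPM in the tumours. Every tumour stood far above every control, with tumour replicate 2 the highest.

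Among the feedback inhibitors, Axin2 (chr11:108920349-108950783), a scaffold of the destruction complex and the gene most used as a readout of WNT signalling, was at 9.22, 14.8 and 9.91 CPM in the controls and 222, 219 and 205 CPM in the tumours. The 3 tumours were nearly equal and 19.0-fold above the controls (log2 fold change 4.25, SE 0.28, edgeR adjusted p = 0.000239). Notum (chr11:120653788-120661175), a secreted enzyme that strips the lipid from WNT proteins, was at 1.25, 2.13 and 1.33 CPM in the controls and 216, 229 and 182 CPM in the tumours. It went from barely detected to abundant in each tumour, 133-fold higher (log2 fold change 7.05, SE 0.35, edgeR adjusted p = 0.000195). Apcdd1, a membrane inhibitor of WNT, was at 23.98, 29.8 and 22.1 CPM in the controls and 915, 1573 and 1152 CPM in the tumours, with no overlap and 48.0-fold higher (log2 fold change 5.58, SE 0.36, edgeR adjusted p = 0.000235). Nkd1 and Nkd2, which bind Dishevelled, rose 111-fold and 148-fold. Rnf43 and Znrf3, which remove Frizzled receptors from the cell surface, rose 9.85-fold and 4.21-fold. Nkd1 was 59.0-fold higher without tumour replicate 2, and Nkd2 was 85.5-fold higher without tumour replicate 1.

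Several secreted antagonists were higher too. Wif1 (chr10:121033960-121100650), which binds WNT proteins outside the cell, was at 6.55, 11.4 and 13.2 CPM in the controls and 1845, 3180.1 and 1364 CPM in the tumours. Each tumour was far above the controls, 205-fold higher (log2 fold change 7.68, SE 0.58, edgeR adjusted p = 0.000333). Dkk4, which blocks the co-receptors Lrp5 and Lrp6, had a single count in the 3 controls and 14.8, 131 and 15.5 CPM in the tumours (ratio 3608, counting interval 647 to 142545, 95% exact, counting error only). Dkk2, of the same family, was at 0.959, 0.995 and 0.477 CPM in the controls and 38.3, 159 and 13.5 CPM in the tumours, with the tumours spread over more than 10-fold and all above the controls (log2 fold change 6.43, SE 1.08, edgeR adjusted p = 0.00432). Dkk3 (edgeR adjusted p = 0.0516), Sfrp1, Sfrp2 and Frzb did not pass the test, nor did the stem cell receptors Lgr5 and Lgr6. Lgr5, a target in gut stem cells, was at 8.67, 9.90 and 7.24 CPM in the controls and 0.423, 4.03 and 5.93 CPM in the tumours, lower in every tumour than in any control and not called (edgeR adjusted p = 0.227). Dkk3 passed the test when tumour replicate 3 was left out, with a filter at 1 CPM, with all 9 libraries in the fit and with DESeq2. Dkk2 was 31.4-fold higher without tumour replicate 2. Without control replicate 1, Dkk4 was at least 773-fold higher. Without tumour replicate 1, the ratio of Dkk4 was 5472. Without tumour replicate 2, the ratio of Dkk4 was 1009.

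The 4 DNA-binding partners of beta-catenin were all called higher. Tcf7 was at 2.46, 2.58 and 2.10 CPM in the controls and 291, 101 and 317 CPM in the tumours, 99.1-fold higher (log2 fold change 6.63, SE 0.55, edgeR adjusted p = 0.000427). Lef1 was at 4.05, 4.93 and 5.24 CPM in the controls and 311, 101 and 172 CPM in the tumours, 41.1-fold higher (log2 fold change 5.36, SE 0.50, edgeR adjusted p = 0.000601). Both were low in all controls and lowest among tumours in replicate 2. Tcf7l1 and Tcf7l2 rose less, 3.31-fold and 4.24-fold. Of the other targets, Sp5, a zinc-finger repressor, was at 4.09, 11.5 and 36.0 CPM in the controls and 137, 205 and 92.6 CPM in the tumours, with a wide spread in the controls. Tnfrsf19, a receptor of the TNF family also called Troy, was at 33.9, 34.6 and 36.8 CPM in the controls and 400.5, 2580.3 and 115 CPM in the tumours, highest by far in tumour replicate 2. Bambi, Cd44 and Kremen1 rose 31.3-fold, 6.56-fold and 8.56-fold, and Ccnd1, which encodes cyclin D1, 13.7-fold. The call of Tcf7l1 was lost when control replicate 1 was left out, that of Tcf7l2 when control replicate 1 or 2 was left out, and that of Sp5 when control replicate 2 was left out. The call of Tnfrsf19 was lost when any 1 control was left out. Sp5 was 18.4-fold higher without control replicate 3, and Tnfrsf19 was 7.28-fold higher without tumour replicate 2. Bambi was 16.8-fold higher without tumour replicate 3.

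**Figure D2:**
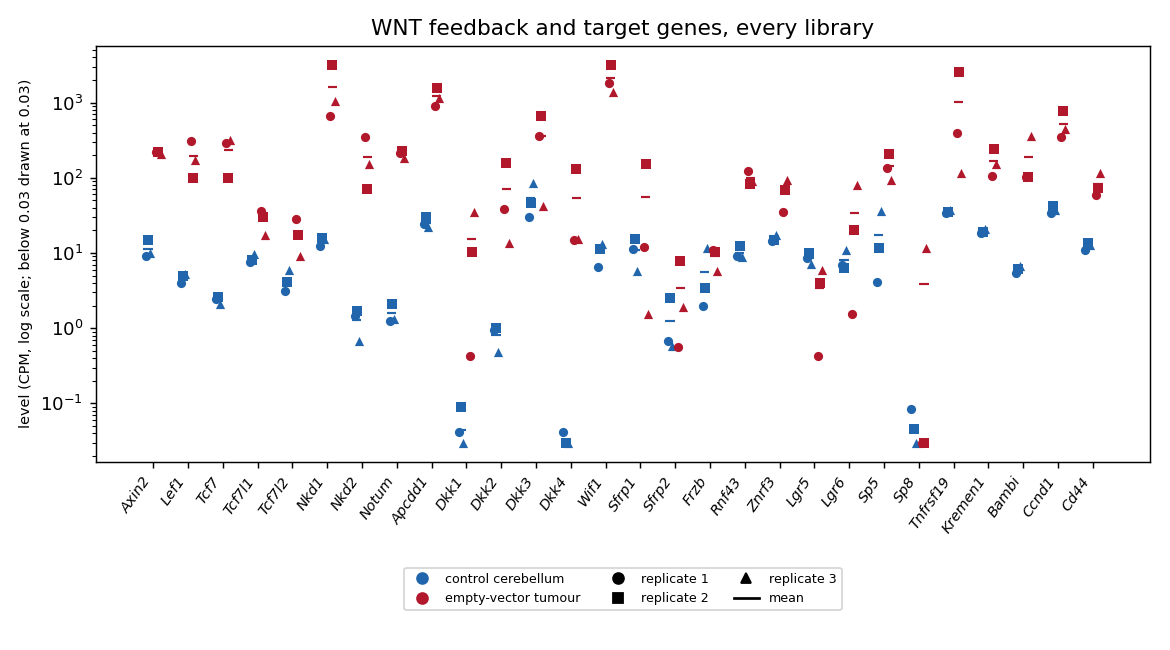
Levels of the 28 WNT feedback and target genes in every library. The y axis is CPM on a log scale, with values below 0.03 drawn at 0.03; blue marks are the 3 controls, red marks the 3 tumours, the shape gives the replicate and the bar the group mean. Axin2, Notum and Apcdd1 show 3 tumours close together and far above the controls, whereas Tnfrsf19 and Dkk2 spread widely and Lgr5 lies below the controls.

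The promoters of these genes were searched for CTTTGAT, a core sequence bound by TCF and LEF factors, on both strands (ATCAAAG on the other) in the 250 bases before and 50 bases after each start. A RefSeq promoter (GRCm38.p6) was at hand for 18 of the listed genes, and 2 of them held the motif at 1 or more of their listed starts (11.1%), against 3.0% of 11297 genes tested that had a sequence and 4.29% of all 27025. The E-box CACGTG, which reads alike on both strands and does not overlap that motif, was in 3 of the 18 (16.7%) and in 11.4% of genes tested. Sp5 and Tnfrsf19, the genes with a match, are shown beside Axin2, which rose in each tumour and has no match in this window. The 250 bases before the start are printed, 5′ to 3′ on the strand of the gene, and capitals mark the motif, which begins 104 bases before the start of Sp5 and, in reverse, 202 bases before the Tnfrsf19 start shown. The table lists another Tnfrsf19 start, upstream of that one (window chr14:61046806-61047105, minus strand), and its window has no match. The positions are chr2:70474673-70474922 on the plus strand, chr14:61037988-61038237 on the minus strand and chr11:108920099-108920348 on the plus strand. A match describes these letters and not a bound site.
Sp5: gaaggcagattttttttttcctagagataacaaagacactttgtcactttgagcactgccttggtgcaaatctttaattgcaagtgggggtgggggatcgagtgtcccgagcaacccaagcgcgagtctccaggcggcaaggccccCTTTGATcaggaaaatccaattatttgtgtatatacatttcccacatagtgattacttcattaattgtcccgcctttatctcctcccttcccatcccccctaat
Tnfrsf19: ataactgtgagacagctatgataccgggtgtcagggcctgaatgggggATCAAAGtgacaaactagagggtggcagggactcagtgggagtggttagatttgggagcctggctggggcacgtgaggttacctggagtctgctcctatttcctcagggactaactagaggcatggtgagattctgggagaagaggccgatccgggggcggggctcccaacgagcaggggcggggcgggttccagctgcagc
Axin2: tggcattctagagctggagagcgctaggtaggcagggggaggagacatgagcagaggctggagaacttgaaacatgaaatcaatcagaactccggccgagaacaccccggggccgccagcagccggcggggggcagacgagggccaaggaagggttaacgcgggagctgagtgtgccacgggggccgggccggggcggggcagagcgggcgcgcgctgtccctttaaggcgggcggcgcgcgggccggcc

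Ligands, receptors and core components moved in both directions. Of 31 genes tested, 12 were called higher and 3 lower, the median member being 1.57-fold higher. Wnt5a, a ligand best known for signalling without beta-catenin, was at 3.59, 6.74 and 3.62 CPM in the controls and 215, 174 and 182 CPM in the tumours, 40.9-fold higher with no overlap (log2 fold change 5.35, SE 0.37, edgeR adjusted p = 0.000261). Wnt5b and Wnt10a rose 10.7-fold and 50.8-fold, and Wls, which carries WNT proteins to the cell surface, 9.73-fold. The R-spondin gene Rspo4, whose protein enhances WNT signalling, had no count in any control and 35.0, 1.23 and 19.7 CPM in the tumours, at least 445-fold higher (floor of 3 counts over the group). Rspo1, Rspo2 and Rspo3 were not called. Without tumour replicate 1, Rspo4 was at least 204-fold higher.

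Among the receptors, Fzd10 was at 1.67, 2.35 and 1.52 CPM in the controls and 213, 302 and 214 CPM in the tumours, 131-fold higher (log2 fold change 7.04, SE 0.35, edgeR adjusted p = 0.000195). It was at a similar level in all 3 tumours, as was Fzd2, at 1.83, 5.20 and 2.24 CPM in the controls and 113, 59.1 and 90.8 CPM in the tumours and 28.3-fold higher. Lrp5 and Axin1 rose 4.10-fold and 2.22-fold, while Lrp6, Apc, Gsk3b and Csnk1a1 were not called. Porcn, the enzyme that attaches the lipid to WNT proteins, was at 63.7, 64.4 and 55.8 CPM in the controls and 6.06, 9.08 and 5.46 CPM in the tumours, 8.91-fold lower (log2 fold change -3.16, SE 0.29, edgeR adjusted p = 0.00058). Btrc, the ubiquitin ligase subunit that recognises marked beta-catenin, was at 102, 98.4 and 103 CPM in the controls and 30.3, 28.8 and 18.7 CPM in the tumours and fell 3.89-fold. Wnt7a, made by granule neurons, was at 63.1, 89.2 and 36.4 CPM in the controls and 1.16, 0.833 and 13.7 CPM in the tumours and fell 12.1-fold. The call of Axin1 was lost when any 1 control or tumour replicate 1 or 3 was left out and against a minimum fold of 1.5, and that of Wnt7a when any 1 control or tumour replicate 1 or 2 was left out and against a minimum fold of 1.5. Wnt10a was 95.0-fold higher without control replicate 3, and Wnt7a was 62.4-fold lower without tumour replicate 3. The count of ligand, receptor and core genes called lower became 6 without tumour replicate 3, 7 with all 9 libraries in the fit, 6 with DESeq2 and 5 with limma-voom.

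The genes used to tell medulloblastoma subgroups apart in patients were then read. Of 5 WNT subgroup genes, 4 were called higher, Wif1, Dkk2, Emx2 and Tnc, of which Wif1 and Dkk2 were also on the list above. Emx2, a forebrain homeobox factor, had no count in the controls and 2.47, 15.9 and 1.94 CPM in the tumours, at least 152-fold higher. Tnc, a matrix glycoprotein, was at 42.0, 50.8 and 41.7 CPM in the controls and 74.1, 259 and 98.8 CPM in the tumours (log2 fold change 1.68, SE 0.49, edgeR adjusted p = 0.0304). The fifth, Gad1, which makes the transmitter GABA, was at 797, 931 and 1180.4 CPM in the controls and 12.9, 6.93 and 10.9 CPM in the tumours, 94.6-fold lower (log2 fold change -6.56, SE 0.41, edgeR adjusted p = 0.000211), and it is a gene of the cerebellum's inhibitory neurons. The call of Tnc was lost when any 1 control was left out and against a minimum fold of 1.5. Tnc was 1.93-fold higher without tumour replicate 2. Without tumour replicate 2, Emx2 was at least 50.7-fold higher.

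None of 4 SHH subgroup genes tested was called. Hhip was at 9.76, 16.9 and 11.01 CPM in the controls and 0.141, 274 and 1.17 CPM in the tumours and Sfrp1 at 11.3, 15.5 and 5.81 CPM in the controls and 11.9, 153 and 1.53 CPM in the tumours. Tumour replicate 2 was above all controls for both, while the other tumours lay at or below them (edgeR adjusted p = 0.298 and 0.211). Group 3 genes gave 1 higher and 1 lower of 4: Npr3, a natriuretic peptide receptor, was at 0.375, 0.724 and 0.477 CPM in the controls and 263, 3.46 and 8.81 CPM in the tumours, and Mab21l2 at 1.96, 9.59 and 35.4 CPM in the controls and 1.23, 0.263 and 0 CPM in the tumours. Tumour replicate 1 held nearly all of the Npr3, and the controls ranged widely for Mab21l2. Of 6 Group 4 genes, 3 were lower and 0 higher: Kcna1, a potassium channel, fell from 307, 374 and 193 CPM in the controls to 0.846, 9.03 and 0.705 CPM in the tumours (log2 fold change -6.36, SE 1.19, edgeR adjusted p = 0.00624), Eomes fell 84.1-fold, and Khdrbs2 fell too (ratio 152, counting interval 51.8 to 742). The call of Npr3 was lost when any 1 control was left out and with limma-voom, and that of Mab21l2 when control replicate 2 or 3 or tumour replicate 2 or 3 was left out, with limma-voom and with limma-voom and a variance weight per group. Npr3 was 11.5-fold higher and Mab21l2 was 108-fold lower without tumour replicate 1, and Kcna1 was 371-fold and Eomes 219-fold lower without tumour replicate 2. Without tumour replicate 1, the ratio of Khdrbs2 was 89.1. Without tumour replicate 2, the ratio of Khdrbs2 was 305. Called higher among Group 3 genes were 0, 0 and 0 without control replicates 1, 2 and 3, 0 with DESeq2 and 0 with limma-voom. The count of Group 3 genes called lower became 0 and 0 without control replicates 2 and 3, 0 without tumour replicate 2, 0 with limma-voom and 0 with limma-voom and a variance weight per group.

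In the sonic hedgehog pathway, 5 of 13 genes tested were higher and 1 lower. Smo, the transducer, was at 38.7, 38.3 and 42.8 CPM in the controls and 249, 189.6 and 144 CPM in the tumours, 4.87-fold higher (log2 fold change 2.28, SE 0.27, edgeR adjusted p = 0.00126). The transcription factors Gli2 and Gli3 rose 7.34-fold and 7.04-fold, Sufu and Cdon were also called higher, and the target Gli1 was not called. Ptch1, the receptor and a target of the pathway, was at 112, 141 and 151 CPM in the controls and 34.0, 19.4 and 40.9 CPM in the tumours, 4.28-fold lower with no overlap (log2 fold change -2.10, SE 0.33, edgeR adjusted p = 0.00353). Called higher among hedgehog genes were 2, 3 and 2 without control replicates 1, 2 and 3. The count of hedgehog genes called lower became 2 and 3 without tumour replicates 2 and 3. The call of Gli3 was lost when any 1 control was left out and with limma-voom. Gli2 was 4.22-fold higher without tumour replicate 1.

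Of 18 Notch genes, 6 were called higher and 1 lower. Hes6, a repressor of Hes1, was at 15.3, 12.9 and 14.2 CPM in the controls and 68.5, 56.6 and 111 CPM in the tumours, 5.57-fold higher (log2 fold change 2.48, SE 0.32, edgeR adjusted p = 0.00167). Rbpj, the DNA-binding partner of Notch, was at 43.4, 51.3 and 49.8 CPM in the controls and 89.7, 82.4 and 107 CPM in the tumours, and the receptor Notch2 at 13.7, 24.8 and 16.5 CPM in the controls and 127, 74.2 and 38.2 CPM in the tumours. Both were higher in every tumour. Jag1, a ligand, was at 4.63, 5.70 and 4.62 CPM in the controls and 12.4, 185 and 13.5 CPM in the tumours, most of it in tumour replicate 2. The targets Hes1 and Hes5 moved oppositely: Hes1 rose 4.71-fold, and Hes5, at 2.002, 2.03 and 1.48 CPM in the controls and 0, 0.175 and 0 CPM in the tumours, fell 28.5-fold. Called higher among Notch genes were 1, 2 and 1 without control replicates 1, 2 and 3 and 10 without tumour replicate 1. The count of Notch genes called lower became 0 without control replicate 2 and 2 and 3 without tumour replicates 2 and 3. The call of Rbpj was lost when any 1 control was left out and against a minimum fold of 1.5, that of Notch2 when control replicate 1 or 3 was left out, and that of Jag1 when any 1 control was left out and with limma-voom. The call of Hes1 was lost when any 1 control was left out, and that of Hes5 when control replicate 2 was left out. Jag1 was 2.60-fold higher and Hes5 was 332-fold lower without tumour replicate 2.

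Genes of cell division rose as a block. All 25 mitosis genes were called higher, the median member being 50.9-fold higher, and so were 25 of 26 DNA replication genes, the median member being 8.42-fold higher. The mitosis genes summed to 31.7, 28.1 and 99.3 CPM in the controls and 2315, 828 and 2637 CPM in the tumours. Each tumour stood far above each control, tumour replicate 2 was the lowest tumour, and control replicate 3 was the highest control for 24 of the 25. Mki67, a marker of cycling cells, was at 0.751, 0.362 and 10.1 CPM in the controls and 220.4, 129 and 314 CPM in the tumours, and Top2a, which untangles DNA, at 0.375, 0.543 and 13.2 CPM in the controls and 339.9, 118 and 424 CPM in the tumours. The same order held for both: control replicate 3 was the highest control and tumour replicate 2 the lowest tumour. The fit gave 59.3-fold for Mki67 (log2 fold change 5.89, SE 1.37, edgeR adjusted p = 0.0138). The call of Top2a was lost when control replicate 1 or 2 was left out. Mki67 was 388-fold and Top2a 628-fold higher without control replicate 3.

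The kinetochore gene Nuf2 was at 3.34, 2.17 and 2.62 CPM in the controls and 41.4, 20.5 and 40.4 CPM in the tumours (log2 fold change 3.65, SE 0.41, edgeR adjusted p = 0.00105). The kinesins of cell separation, Kif23 and Kif20a, rose 219-fold and 28.5-fold, and Cdk1, the kinase of mitotic entry, 55.2-fold. Among replication genes, Gins2 of the replicative helicase was at 0.500, 0.452 and 1.05 CPM in the controls and 11.3, 12.3 and 21.9 CPM in the tumours (log2 fold change 4.50, SE 0.54, edgeR adjusted p = 0.0014). Tyms, which makes thymidylate, rose 21.5-fold, the helicase subunit Mcm2 12.3-fold, the clamp loader Rfc3 4.62-fold and the clamp Pcna 3.50-fold. The flap nuclease Fen1 was the member of the replication list not called, at 23.1, 21.6 and 24.3 CPM in the controls and 59.9, 26.4 and 43.4 CPM in the tumours (edgeR adjusted p = 0.0616). Of the 26 replication genes, 25 were highest in tumour replicate 3. The call of Pcna was lost when control replicate 1 was left out. Fen1 passed the test when tumour replicate 2 was left out, with scaling by library size alone, with all 9 libraries in the fit and with DESeq2. Kif23 was 477-fold and Cdk1 112-fold higher without control replicate 3, and Tyms was 13.8-fold higher without tumour replicate 3.

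Of 24 cyclins, cyclin-dependent kinases, their inhibitors and RB and E2F genes, 18 were higher and 2 lower, the median member being 14.9-fold higher. Ccnd1 (chr7:144929931-144939925) was at 34.1, 42.1 and 37.3 CPM in the controls and 349, 764 and 441 CPM in the tumours, 13.7-fold higher (log2 fold change 3.77, SE 0.38, edgeR adjusted p = 0.000743). Its kinases Cdk4 and Cdk6 rose 15.4-fold and 60.6-fold, and Cdk2 was at 1.29, 1.22 and 1.33 CPM in the controls and 53.6, 27.6 and 31.4 CPM in the tumours, 29.1-fold higher (log2 fold change 4.87, SE 0.39, edgeR adjusted p = 0.000381). All tumours were far above the controls for these. Ccnd2 was at 5.59, 8.41 and 7.43 CPM in the controls and 12.1, 172 and 518 CPM in the tumours, barely above the controls in tumour replicate 1 and highest in replicate 3. E2f1 rose 20.7-fold, while Rb1, Rbl2, Ccne1 and Ccne2 were not called.

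The inhibitors of these kinases were split. Cdkn2a, which encodes p16 and ARF, was at 0, 0.0452 and 1.62 CPM in the controls and 90.9, 259 and 96.0 CPM in the tumours, with all tumours far above the controls (log2 fold change 8.08, SE 1.57, edgeR adjusted p = 0.00732). Cdkn2b rose 14.5-fold and Cdkn1c, which encodes p57, 24.6-fold. Cdkn1b, which encodes p27, was at 69.2, 112 and 71.3 CPM in the controls and 28.6, 32.8 and 8.05 CPM in the tumours, 3.64-fold lower (log2 fold change -1.86, SE 0.54, edgeR adjusted p = 0.0293). Cdkn2d fell 1.94-fold. The call of Ccnd2 was lost when any 1 control was left out and with limma-voom, that of Cdkn1b when any 1 control or tumour replicate 1 was left out, and that of Cdkn2d when any 1 control or tumour replicate 1 or 3 was left out, with scaling by library size alone and against a minimum fold of 1.5. Ccnd2 was 12.8-fold higher without tumour replicate 3, and Cdkn2a was 5403-fold higher without control replicate 3. Cdkn2b was 9.17-fold higher without tumour replicate 2.

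Of 22 genes that p53 activates, 6 were called higher and 2 lower, the median member being 1.71-fold higher. The share called higher was 27.3%, close to the 24.6% of all genes. The share called lower was 9.09%, against 22.9% of all genes. What part the Trp53 alleles had in these values was not tested. Cdkn1a, which encodes p21, was at 16.8, 20.5 and 32.0 CPM in the controls and 111, 137 and 1218 CPM in the tumours. It was above the controls in every tumour and highest by far in replicate 3 (log2 fold change 4.40, SE 1.07, edgeR adjusted p = 0.0164). Trp53inp1 was at 9.34, 13.2 and 13.01 CPM in the controls and 91.0, 109 and 36.4 CPM in the tumours (log2 fold change 2.73, SE 0.45, edgeR adjusted p = 0.00409) and the death effector Bax at 22.1, 21.7 and 20.5 CPM in the controls and 43.6, 55.2 and 49.6 CPM in the tumours (log2 fold change 1.21, SE 0.21, edgeR adjusted p = 0.00512). Btg2 rose 4.40-fold. Zmat3 was at 50.9, 64.6 and 50.03 CPM in the controls and 36.8, 21.4 and 26.7 CPM in the tumours and Rrm2b at 22.6, 29.7 and 20.9 CPM in the controls and 11.98, 16.5 and 11.6 CPM in the tumours, lower in each tumour by 1.95-fold and 1.83-fold. Mdm2, Bbc3, Ccng1 and Sesn1 were among the 14 not called. Called higher among p53 targets were 2, 2 and 2 without control replicates 1, 2 and 3. The count of p53 targets called lower became 0, 0 and 0 without control replicates 1, 2 and 3, 1 with scaling by library size alone, 1 with limma-voom and a variance weight per group and 0 against a minimum fold of 1.5. The calls of Cdkn1a and Btg2 were lost when any 1 control was left out, that of Zmat3 when any 1 control or tumour replicate 3 was left out, with limma-voom and a variance weight per group and against a minimum fold of 1.5, and that of Rrm2b when any 1 control or tumour replicate 1 or 3 was left out, with scaling by library size alone, with limma-voom and a variance weight per group and against a minimum fold of 1.5. Cdkn1a was 5.34-fold higher without tumour replicate 3, and Btg2 was 2.77-fold higher without tumour replicate 2.

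Genes that FOXO factors or PI3 kinase feedback control gave 4 higher and 5 lower of 18, shares close to those of all genes. FOXO factors are held in the cytoplasm when PI3 kinase is active. Irs2, an adaptor of the insulin receptor and a FOXO target, was at 58.8, 50.5 and 65.6 CPM in the controls and 17.4, 25.3 and 23.3 CPM in the tumours, 2.65-fold lower (log2 fold change -1.41, SE 0.25, edgeR adjusted p = 0.005). Bcl6, a repressor, was at 96.3, 92.0 and 127 CPM in the controls and 45.5, 37.8 and 25.4 CPM in the tumours, and Pik3ip1, an inhibitor of PI3 kinase, at 43.1, 47.8 and 47.2 CPM in the controls and 18.1, 22.8 and 25.4 CPM in the tumours, both lower in every tumour by 2.90-fold and 2.08-fold. Irs1, the sister adaptor of Irs2, rose 3.24-fold and Klf6 2.67-fold. Called higher among these genes were 2, 2 and 2 without control replicates 1, 2 and 3. The count of these genes called lower became 2, 3 and 2 without control replicates 1, 2 and 3. The call of Pik3ip1 was lost when any 1 control was left out.

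Genes that make ribosomes rose. Of 29 ribosome biogenesis genes, 24 were higher and 0 lower, the median member being 3.81-fold higher, and 27 of the 29 were highest in tumour replicate 3. Fbl, fibrillarin, which modifies ribosomal RNA, was at 32.4, 31.8 and 39.6 CPM in the controls and 205, 107 and 383 CPM in the tumours, 6.69-fold higher (log2 fold change 2.74, SE 0.48, edgeR adjusted p = 0.00515). Polr1a, the large subunit of RNA polymerase I, was at 37.6, 32.2 and 41.0 CPM in the controls and 201, 106 and 334 CPM in the tumours, and the helicase Ddx21 at 34.8, 34.5 and 40.7 CPM in the controls and 379, 116 and 534 CPM in the tumours. For all of them tumour replicate 2 was the lowest tumour. The abundant nucleolar genes Npm1 and Ncl rose 6.44-fold and 3.81-fold. Called higher among these genes were 7, 7 and 9 without control replicates 1, 2 and 3 and 15 without tumour replicate 1. The call of Ncl was lost when any 1 control or tumour replicate 1 was left out. Ncl was 2.52-fold higher without tumour replicate 3.

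Ribosomal protein and translation factor genes were among the called genes with the greatest rises in CPM. Of 77 cytosolic ribosomal protein genes tested, a family read after these values were seen, 72 were higher and 1 lower, the median member being 4.04-fold higher. Together they held 21111, 17867 and 22588 CPM in the controls and 119606, 51414 and 95302 CPM in the tumours, lowest among tumours in replicate 2. Counts of this family can be shared with processed pseudogenes. Eef1a1, which brings transfer RNAs to the ribosome, was at 1933, 1917 and 2362 CPM in the controls and 16164, 8740.0 and 12259 CPM in the tumours, 5.98-fold higher (log2 fold change 2.58, SE 0.41, edgeR adjusted p = 0.00366). Rplp0 of the large subunit was at 331, 289 and 369 CPM in the controls and 3607, 2139.8 and 4017 CPM in the tumours and Rps4x of the small subunit at 414, 349 and 475 CPM in the controls and 5066, 1761 and 3558 CPM in the tumours, 9.87-fold and 8.39-fold higher. Rps2 rose 7.23-fold and Eef2, which moves the ribosome along, 2.59-fold. Genes of the actin skeleton were among them too. Actg1 was at 1128, 1015 and 1087 CPM in the controls and 5319, 3372 and 3829.7 CPM in the tumours, and Flna, which cross-links actin, at 69.0, 52.9 and 55.8 CPM in the controls and 3759, 1794 and 1459.8 CPM in the tumours, 39.5-fold higher (log2 fold change 5.30, SE 0.51, edgeR adjusted p = 0.000636). The call of Eef2 was lost when any 1 control or tumour replicate 1 was left out and against a minimum fold of 1.5.

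Of 25 nucleotide and one-carbon genes, 17 were higher and 0 lower, the median member being 3.67-fold higher, and 23 were highest in tumour replicate 3. Mthfd2, of mitochondrial folate metabolism, was at 9.42, 8.05 and 10.9 CPM in the controls and 54.95, 61.9 and 97.2 CPM in the tumours, 7.55-fold higher (log2 fold change 2.92, SE 0.31, edgeR adjusted p = 0.000932). Odc1, the first enzyme of polyamine synthesis, rose 5.14-fold and Impdh2, of guanine nucleotide synthesis, 6.67-fold. Phgdh, the first step of serine synthesis, was at 76.9, 74.2 and 89.3 CPM in the controls and 549, 81.9 and 547 CPM in the tumours. Tumour replicates 1 and 3 were far above the controls and replicate 2 was within their range. The count of these genes called higher became 5, 5 and 5 without control replicates 1, 2 and 3, 10 without tumour replicate 1 and 11 with limma-voom. The call of Phgdh was lost when any 1 control or tumour replicate 1 or 3 was left out and with limma-voom.

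Glycolysis and hypoxia genes gave 4 higher (15.4%) and 5 lower (19.2%) of 26. Both shares were below the 24.6% and 22.9% of all genes. The lactate dehydrogenase pair moved in opposite directions. Ldha, the lactate dehydrogenase subunit of proliferating tissue, was at 199.8, 189 and 259 CPM in the controls and 799, 1013 and 2679.8 CPM in the tumours, 6.93-fold higher (log2 fold change 2.79, SE 0.53, edgeR adjusted p = 0.00683). Ldhb, its counterpart in brain and heart, was at 924, 725 and 827 CPM in the controls and 55.8, 106 and 42.4 CPM in the tumours, 12.1-fold lower (log2 fold change -3.60, SE 0.43, edgeR adjusted p = 0.0013). Eno2, the enolase of neurons, was at 1659, 1065 and 1206 CPM in the controls and 5.99, 25.0 and 7.17 CPM in the tumours, and Aldoc, the aldolase of Purkinje cells and astrocytes, at 2075, 3321 and 6276 CPM in the controls and 52.9, 671 and 41.8 CPM in the tumours, 103-fold and 15.2-fold lower. Hk1 fell 3.26-fold. The hypoxia-responsive genes Adm and Vegfa rose 3.75-fold and 1.99-fold, and Car9 was not called. Called higher among these genes were 1, 2 and 1 without control replicates 1, 2 and 3 and 11 without tumour replicate 2. The count of these genes called lower became 3, 3 and 3 without control replicates 1, 2 and 3, 9 without tumour replicate 3 and 3 against a minimum fold of 1.5. The call of Aldoc was lost when any 1 control or tumour replicate 1 or 3 was left out and against a minimum fold of 1.5, that of Adm when control replicate 1 or 3 was left out, and that of Vegfa when any 1 control or tumour replicate 1 was left out and against a minimum fold of 1.5. Ldha was 4.19-fold higher without tumour replicate 3, and Eno2 was 199.8-fold and Aldoc 82.3-fold lower without tumour replicate 2.

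Of 18 cholesterol synthesis genes, 3 were called higher and 0 lower, the median member being 1.72-fold higher. Hmgcs1, an early step, was at 137, 158 and 134 CPM in the controls and 304, 276 and 613 CPM in the tumours (log2 fold change 1.47, SE 0.36, edgeR adjusted p = 0.0171), and Nsdhl rose 2.62-fold. Fdps was at 48.0, 40.6 and 52.2 CPM in the controls and 170.2, 45.6 and 256 CPM in the tumours, with tumour replicate 2 inside the control range. The share called was below that of all genes. Called higher among these genes were 0, 0 and 0 without control replicates 1, 2 and 3, 10 without tumour replicate 2 and 6 with all 9 libraries in the fit. The call of Hmgcs1 was lost when any 1 control was left out, that of Nsdhl when any 1 control or tumour replicate 1 was left out, and that of Fdps when any 1 control or tumour replicate 1 or 3 was left out, with no filter on low counts, with limma-voom and against a minimum fold of 1.5.

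The genes of mature cerebellar neurons were very low in the tumours. All 14 Purkinje cell genes, 14 of 15 granule neuron genes and all 10 inhibitory interneuron genes were called lower, with medians 219-fold lower, 166-fold lower and 122-fold lower, against 22.9% of all genes. Purkinje genes summed to 12222, 12169 and 13885 CPM in the controls and 199, 426 and 150.1 CPM in the tumours. Replicate 2 was the highest tumour, and every tumour was far below every control.

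Calb1 (chr4:15881264-15908064), the calcium buffer of Purkinje cells, was at 1656, 1309 and 1590.3 CPM in the controls and 0.740, 4.65 and 1.29 CPM in the tumours, 680.1-fold lower (log2 fold change -9.41, SE 0.92, edgeR adjusted p = 0.000686). Pcp2, found almost solely in Purkinje cells of the brain, was at 210.2, 140.5 and 171 CPM in the controls and 0.106, 0.526 and 0.352 CPM in the tumours, 534-fold lower (log2 fold change -9.06, SE 0.63, edgeR adjusted p = 0.000263). Pvalb, of Purkinje cells and interneurons, fell 343-fold, and Itpr1, the calcium release channel that is abundant in Purkinje cells, went from 5583, 6079 and 7312 CPM in the controls to 155, 296 and 92.2 CPM in the tumours. Of granule neuron genes, the GABA receptor subunit Gabra6 was at 906, 804 and 533 CPM in the controls and 0.634, 3.99 and 0.940 CPM in the tumours, the vesicular glutamate transporter Slc17a7 at 1009, 722 and 730.5 CPM in the controls and 2.15, 6.58 and 2.82 CPM in the tumours, and the synapse organiser Cbln3 at 1344, 1679.6 and 1055 CPM in the controls and 3.38, 10.1 and 4.35 CPM in the tumours. They were 402-fold, 213-fold and 228-fold lower. The progenitor factor Pax6 was the granule list's member not called. Calb1 was 1522-fold, Pcp2 821-fold, Pvalb 530.2-fold, Gabra6 964-fold, Slc17a7 332-fold and Cbln3 352-fold lower without tumour replicate 2.

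These same genes check the label of the controls. Purkinje and granule cell genes are defining genes of cerebellum, and the controls held them at high levels. Emx1, a factor of the cerebral cortex, had no count in any of the 6 libraries. Neurod6 and Tbr1, also of cortex, lay between 0.588 and 4.77 CPM in the controls. Of 6 forebrain genes tested, 4 were lower in the tumours and 1 was higher. Camk2a, also present in Purkinje cells, was at 154, 167 and 164 CPM in the controls and 2.43, 2.59 and 1.76 CPM in the tumours, 71.1-fold lower (log2 fold change -6.15, SE 0.28, edgeR adjusted p = 0.000185).

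The machinery shared by all neurons fell with them. Of 24 synaptic vesicle and SNARE genes, 23 were lower and 1 higher, the median member being 130.3-fold lower. Snap25, a SNARE of vesicle fusion, was at 4609, 3519 and 3141 CPM in the controls and 7.37, 17.8 and 4.93 CPM in the tumours, 374-fold lower (log2 fold change -8.55, SE 0.72, edgeR adjusted p = 0.000441). The calcium sensor Syt2 was at 379, 363 and 267 CPM in the controls and 0.493, 0.789 and 0.294 CPM in the tumours, 625-fold lower (log2 fold change -9.29, SE 0.49, edgeR adjusted p = 0.000199). The vesicle protein Syp fell 155-fold, the active zone scaffold Pclo 222-fold and complexin Cplx1 237-fold. Stx1a, a syntaxin, was the exception, at 0.834, 1.31 and 1.29 CPM in the controls and 4.16, 2.68 and 7.99 CPM in the tumours, low in the controls and 4.30-fold higher in the tumours. The call of Stx1a was lost when any 1 control was left out. Snap25 was 611-fold lower without tumour replicate 2.

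Receptors and channels followed. Of 21 GABA and glutamate receptor subunits, 19 were lower and 0 higher (median 120.5-fold lower), and all 19 sodium, potassium and calcium channel genes were lower (median 89.3-fold lower). The obligate NMDA receptor subunit gene Grin1 was at 306, 245 and 265 CPM in the controls and 0.458, 1.40 and 0.587 CPM in the tumours (log2 fold change -8.37, SE 0.55, edgeR adjusted p = 0.000239). The AMPA receptor gene Gria1 fell 108-fold and the sodium channel gene Scn1a 279-fold. Kif5a, a motor of axonal transport, fell 275-fold. Grin1 was 524-fold and Gria1 179.9-fold lower without tumour replicate 2.

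Genes of neuronal differentiation were lower in 14 of 17 cases and higher in 0, the median member being 83.7-fold lower. Elavl4, an RNA-binding protein of postmitotic neurons, was at 139, 144 and 163 CPM in the controls and 0.740, 0.921 and 0.411 CPM in the tumours (log2 fold change -7.72, SE 0.39, edgeR adjusted p = 0.000199). The axonal proteins Mapt and Gap43 fell 108-fold and 84.7-fold. Tubb3, an early neuronal tubulin, was not called: it was at 219.9, 154 and 196 CPM in the controls and 49.3, 108 and 192 CPM in the tumours, and tumour replicate 3 reached the controls (edgeR adjusted p = 0.258). Dcx and Elavl2 were not called either. Tumour replicate 2 was the highest tumour for 17 of 24 synaptic, 15 of 21 receptor, 14 of 19 channel, 12 of 15 granule and 12 of 14 Purkinje genes. It was the highest for fewer of the others, 8 of 17 differentiation genes and 2 of 10 inhibitory interneuron genes. Tubb3 passed the test when tumour replicate 3 was left out.

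**Figure D3:**
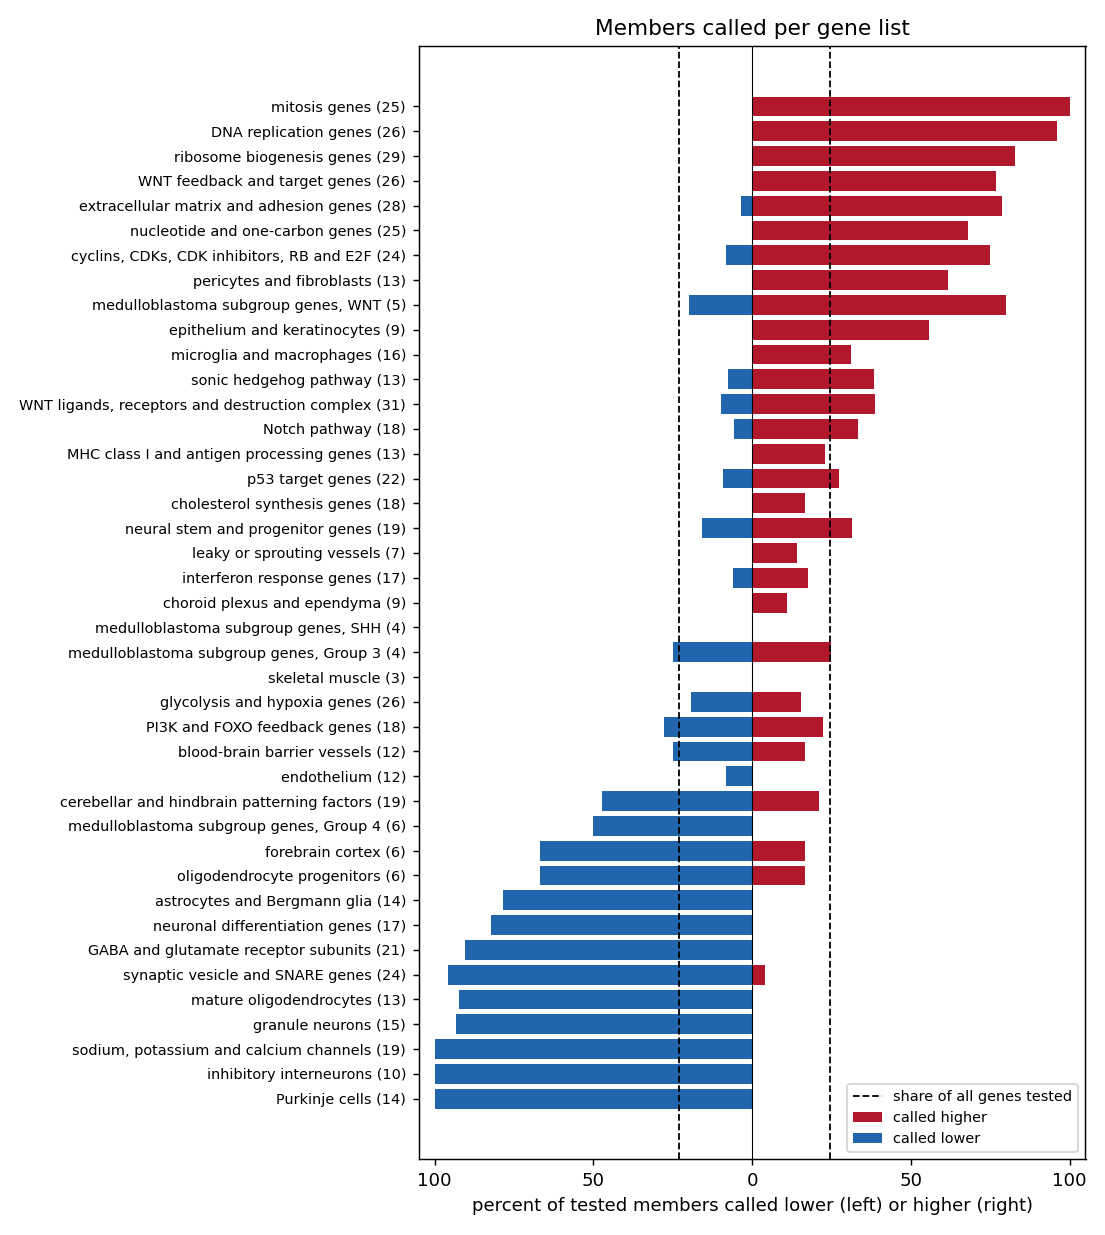
Share of the tested members of each gene list called lower (blue, to the left) or higher (red, to the right) in the tumours. The x axis is the percent of tested members, the number tested stands in brackets, lists are ordered by the difference of the shares, and dashed lines mark the 22.9% and 24.6% of all genes called lower and higher. Cell division, ribosome biogenesis and WNT target genes lie at the top and the neuronal lists at the bottom.

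Glial genes were lower as well. Of 13 genes of mature oligodendrocytes, the cells that make myelin, 12 were lower (median 42.9-fold lower). Mbp, a main myelin protein, was at 2372, 2790.0 and 1235 CPM in the controls and 38.9, 169 and 36.4 CPM in the tumours (log2 fold change -4.71, SE 0.80, edgeR adjusted p = 0.00463). Ermn was at 76.1, 77.6 and 47.4 CPM in the controls and 1.30, 1.45 and 1.12 CPM in the tumours, 51.7-fold lower (log2 fold change -5.69, SE 0.34, edgeR adjusted p = 0.000201), and Ugt8a, of myelin lipid synthesis, fell 75.7-fold. Of 6 genes of oligodendrocyte progenitors, 4 fell, among them the lineage factors Sox10 (87.5-fold), Olig1 (30.1-fold) and Olig2 (54.6-fold), and Pdgfra, which fibroblasts share, rose: it was at 25.4, 37.8 and 31.4 CPM in the controls and 182, 168 and 60.7 CPM in the tumours (log2 fold change 2.12, SE 0.45, edgeR adjusted p = 0.01). Mbp was 56.7-fold lower without tumour replicate 2.

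Of 14 genes of astrocytes and Bergmann glia, 11 were lower and 0 higher (median 15.4-fold lower). The glutamate transporter Slc1a3 was at 1669, 2163 and 2028 CPM in the controls and 16.04, 54.9 and 18.7 CPM in the tumours, 65.3-fold lower (log2 fold change -6.03, SE 0.64, edgeR adjusted p = 0.000911), and Slc1a2 fell 36.9-fold. The water channel Aqp4 was at 527, 533 and 604 CPM in the controls and 59.4, 139.8 and 34.0 CPM in the tumours, and Aldh1l1 at 101, 91.4 and 120.1 CPM in the controls and 6.87, 13.6 and 4.93 CPM in the tumours. Tumour replicate 2 held the most of each among the tumours and was still below every control. Sparcl1, abundant in astrocytes, fell 23.9-fold, and the creatine kinase gene Ckb 8.36-fold. Sox9, of astrocytes and progenitors, was at 59.3, 68.9 and 72.6 CPM in the controls and 40.6, 74.0 and 9.40 CPM in the tumours and was not called (edgeR adjusted p = 0.405), and neither were Gfap and Gja1. The call of Ckb was lost when control replicate 1 was left out. Slc1a3 was 112-fold, Slc1a2 67.1-fold, Aqp4 11.9-fold, Sparcl1 51.3-fold and Ckb 20.3-fold lower without tumour replicate 2.

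Genes of neural stem and progenitor cells did not move as one: of 19 tested, 6 were higher and 3 lower. Sox4 and Sox11, of differentiating progenitors, were at 7.59, 7.78 and 12.4 CPM in the controls and 357, 154 and 205 CPM in the tumours and at 2.04, 2.40 and 3.91 CPM in the controls and 194, 75.3 and 194 CPM in the tumours. All tumours were far above the controls, 25.8-fold and 55.4-fold. The intermediate filament genes Nes and Vim rose 9.66-fold and 5.75-fold, and Id1, a BMP target that blocks differentiation factors, was at 5.25, 6.69 and 5.38 CPM in the controls and 86.0, 112 and 104 CPM in the tumours (log2 fold change 4.13, SE 0.25, edgeR adjusted p = 0.000201). Id3 rose 26.1-fold while Id4, at 90.2, 86.6 and 102 CPM in the controls and 5.25, 12.3 and 4.52 CPM in the tumours, fell 12.6-fold. The SOXB1 factors of neural stem cells differed from these: Sox1 was at 41.2, 37.4 and 51.0 CPM in the controls and 0.141, 0.570 and 0.235 CPM in the tumours (log2 fold change -7.08, SE 0.60, edgeR adjusted p = 0.000442), and Sox2 at 52.1, 55.2 and 56.2 CPM in the controls and 1.76, 28.6 and 0.940 CPM in the tumours. Sox2 was below the controls in every tumour, but tumour replicate 2 held far more than the others and the gene was not called (edgeR adjusted p = 0.146). The count of progenitor genes called lower became 6 and 5 without tumour replicates 2 and 3, 5 with DESeq2, 7 with limma-voom and 8 with limma-voom and a variance weight per group. Sox2 passed the test when tumour replicate 2 was left out, with limma-voom and with limma-voom and a variance weight per group. Id4 was 19.0-fold and Sox1 234-fold lower without tumour replicate 2.

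Of 19 factors that pattern the cerebellum and hindbrain, 9 were lower and 4 higher. Zic1 and Zic2, of granule cell progenitors and their progeny, were at 454, 492 and 472 CPM in the controls and 1.30, 11.4 and 5.58 CPM in the tumours and at 312, 368 and 273 CPM in the controls and 69.4, 67.4 and 59.9 CPM in the tumours. Zic1 was 77.8-fold lower and Zic2, which kept a steady level in all tumours, 4.84-fold (edgeR adjusted p = 0.000744). Pax2, of interneuron progenitors, was at 9.42, 10.2 and 9.72 CPM in the controls and had no count in any tumour, at least 222-fold lower. En1 fell 76.8-fold, Zic4 34.3-fold, and En2 was at 93.5, 118 and 85.1 CPM in the controls and 0.916, 35.0 and 11.6 CPM in the tumours, below the controls and not called (edgeR adjusted p = 0.0821). Msx1, a target of BMP in the dorsal neural tube, was at 0.417, 0.859 and 0.572 CPM in the controls and 11.4, 27.5 and 66.3 CPM in the tumours, 56.5-fold higher (log2 fold change 5.82, SE 0.80, edgeR adjusted p = 0.00216). Lmx1b, of the roof plate and hindbrain, had 1 count in the controls and 4.76, 2.50 and 1.88 CPM in the tumours (ratio 220.3, counting interval 39.1 to 8741). The call of En1 was lost with limma-voom and a variance weight per group. En2 passed the test when tumour replicate 1 or 2 was left out, with all 9 libraries in the fit, with DESeq2, with limma-voom and with limma-voom and a variance weight per group. Zic1 was 139-fold and Zic4 77.0-fold lower without tumour replicate 2, and Msx1 was 31.3-fold higher without tumour replicate 3. Without control replicate 1, the ratio of Lmx1b was 142. Without control replicate 2, Lmx1b was at least 49.2-fold higher.

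Homeobox and other developmental factors that are normally silent in cerebellum were among those with the greatest relative rises. The genes of this paragraph beyond Tlx1, Barx1 and Pitx1 were chosen after their values were seen. Tlx1 (chr19:45150680-45156943) had no count in any control and 166, 0.965 and 29.7 CPM in the tumours, at least 1714-fold higher. Tumour replicate 1 held most of it and replicate 2 very little. Barx1, with no count in the controls, reached 54.0, 10.9 and 22.9 CPM, at least 711-fold higher. Pitx1 (chr13:55825051-55836192), a factor of the hindlimb and pituitary, was at 0.125, 0.181 and 0.0953 CPM in the controls and 963, 89.3 and 91.2 CPM in the tumours, 2731-fold higher (log2 fold change 11.42, SE 1.52, edgeR adjusted p = 0.00194). Evx1 was at 0, 0.0452 and 0 CPM in the controls and 24.7, 47.0 and 31.1 CPM in the tumours (ratio 2265, counting interval 406 to 89513), and Hand2, a factor of heart, limb and autonomic neurons, at 0, 0.136 and 0 CPM in the controls and 29.9, 66.6 and 39.2 CPM in the tumours (ratio 995, counting interval 340.1 to 4826). Foxa1 and Lhx2 rose 277-fold and 227-fold. The call of Tlx1 was lost when any 1 control or tumour replicate 3 was left out. Pitx1 was 635-fold higher without tumour replicate 1, and Foxa1 was 129-fold and Lhx2 112-fold higher without tumour replicate 2. Without tumour replicate 1, Tlx1 was at least 296-fold higher and Barx1 was at least 358-fold higher. Without control replicate 1, the ratio of Evx1 was 1456 and the ratio of Hand2 was 639. Without control replicate 2, Evx1 was at least 506-fold higher and Hand2 was at least 667-fold higher.

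Hox genes set position along the body axis, and those of paralog groups 1 to 5 mark the hindbrain. None of 15 genes of groups 1 to 5 had enough counts in enough libraries to be tested. They summed to 0.334, 0.588 and 0.381 CPM in the controls and 9.55, 1.45 and 56.3 CPM in the tumours, most of it in tumour replicate 3. Of 24 genes of groups 6 to 13, which mark the trunk, 5 were tested and all 5 were higher. These were Hoxa7, Hoxa9, Hoxa10, Hoxa13 and Hoxb9. The 24 genes summed to 0, 0.136 and 0.286 CPM in the controls. A member could therefore pass the count filter only through the tumours, which fixed the direction of the 5 in advance. Hoxa10 had no count in the controls and 23.1, 1.84 and 14.7 CPM in the tumours, at least 311-fold higher. Hoxb9, at 0 to 0.0477 CPM in the controls, had 39.4, 25.3 and 52.8 CPM in the tumours (ratio 1276, counting interval 353 to 10540.1). Without tumour replicate 1, Hoxa10 was at least 165-fold higher. Without control replicate 1, the ratio of Hoxb9 was 819.7. Above 1 CPM were 5, 4 and 14 of these 24 genes in tumour replicates 1, 2 and 3, and none in any control. Other genes of the HoxB and HoxC clusters were found above 1 CPM in tumour replicate 3 and in no other library.

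Other genes stood out by fold. Fst, follistatin, which binds activin, had no count in the controls and 9.87, 59.0 and 5.70 CPM in the tumours (at least 565-fold higher), Gykl1 6.80, 6.88 and 56.9 CPM (at least 432-fold higher) and Lrtm1 8.25, 43.5 and 0.529 CPM (at least 405-fold higher). Krt23, a keratin, had 1 count in the controls and 7.58, 13.9 and 126 CPM in the tumours (ratio 2633, counting interval 472 to 104044). Pnliprp1, a lipase-related gene of the pancreas, was at 0.125, 0.452 and 0.191 CPM in the controls and 37.8, 2144 and 6.40 CPM in the tumours, almost all of it in tumour replicate 2. Genes with the largest falls had few or no counts in the tumours. Ldoc1 went from 16.6, 19.6 and 4.67 CPM in the controls to no count (at least 315-fold lower), Gpr12 and the glycine transporter Slc6a5 of inhibitory neurons were at least 216-fold lower and at least 194-fold lower, and Lingo4 was at least 176-fold lower. Nwd2, Clvs1 and B3galt2 kept a few counts in the tumours, with control to tumour ratios of 1060.4, 919 and 853 (counting intervals 362 to 5145, 314 to 4459, and 236 to 7049). Sowaha fell 697-fold. The call of Lrtm1 was lost when any 1 control or tumour replicate 1 was left out, and that of Pnliprp1 when any 1 control was left out and with limma-voom. Pnliprp1 was 84.5-fold higher without tumour replicate 2. Without tumour replicate 2, Fst was at least 186-fold higher and Lrtm1 was at least 119.7-fold higher. Without tumour replicate 3, the ratio of Krt23 was 699, the ratio of B3galt2 was 1280.1 and Gykl1 was at least 153-fold higher. Without control replicate 1, the ratio of Krt23 was 1692. Without control replicate 2, Krt23 was at least 588-fold higher. Without tumour replicate 1, the ratio of Krt23 was 4147, the ratio of Nwd2 was 1858 and the ratio of B3galt2 was 498.

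Matrix and adhesion genes were higher in 22 of 28 cases and lower in 1, the median member being 12.5-fold higher. Some rose evenly: Lamc1, a laminin chain of basement membranes, was at 35.2, 41.4 and 45.9 CPM in the controls and 521, 487 and 509 CPM in the tumours (log2 fold change 3.63, SE 0.24, edgeR adjusted p = 0.000239), and Itga5, of the fibronectin receptor, at 4.55, 2.67 and 2.62 CPM in the controls and 97.0, 98.1 and 80.8 CPM in the tumours (log2 fold change 4.81, SE 0.33, edgeR adjusted p = 0.000261). Thbs1 was at 1.29, 1.81 and 1.76 CPM in the controls and 209, 112 and 113 CPM in the tumours, 89.1-fold higher, and the protease Mmp2 rose 181-fold, versican Vcan 9.94-fold and fibronectin Fn1 8.30-fold. Others depended on the tumour. Col1a1 was at 12.01, 23.7 and 22.5 CPM in the controls and 11.4, 3204 and 6223 CPM in the tumours, at control level in tumour replicate 1 and far above every control in the other tumours. Postn was at 0.334, 2.08 and 1.29 CPM in the controls and 8.25, 2079 and 60.6 CPM in the tumours, nearly all in replicate 2, and Col4a1, of basement membranes, at 43.8, 34.8 and 47.2 CPM in the controls and 358, 1940.0 and 497 CPM in the tumours. Bcan, a proteoglycan of brain matrix, was at 216, 163 and 180.1 CPM in the controls and 14.3, 30.1 and 7.40 CPM in the tumours, 10.8-fold lower (log2 fold change -3.43, SE 0.54, edgeR adjusted p = 0.00346). The calls of Col1a1 and Postn were lost when any 1 control was left out and with limma-voom. Col1a1 was 82.6-fold higher without tumour replicate 3, and Postn was 28.2-fold and Col4a1 10.2-fold higher and Bcan was 17.2-fold lower without tumour replicate 2.

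Markers of pericytes and fibroblasts were higher in 8 of 13 and lower in 0 (median 9.73-fold higher). Their summed level was 343, 397 and 405 CPM in the controls and 4149, 12566 and 8611 CPM in the tumours. Col1a1 made up most of the sum of tumour replicate 3, which was the lowest tumour for 11 of the 13. The median member stood 2.55, 3.11 and 0.96 log2 units above the control mean in the tumours. Part of this list are collagens also on the matrix list. Col3a1 was at 5.63, 17.3 and 14.6 CPM in the controls and 1068, 1112 and 171 CPM in the tumours, and Pdgfrb, the receptor that defines pericytes, at 24.4, 23.9 and 25.0 CPM in the controls and 138, 231 and 54.2 CPM in the tumours (log2 fold change 2.53, SE 0.52, edgeR adjusted p = 0.00866). Dcn, a proteoglycan of fibroblasts, was at 37.1, 61.5 and 41.2 CPM in the controls and 1120.2, 7248 and 79.2 CPM in the tumours, and Lum, its relative, rose 20.0-fold. Acta2, smooth muscle actin, was at 17.6, 10.6 and 10.1 CPM in the controls and 787, 165 and 12.04 CPM in the tumours. Replicate 3 held the least of Dcn, Acta2, Col3a1 and Pdgfrb among the tumours, and for Acta2 it lay within the control range. Rgs5, Des and Kcnj8, further pericyte genes, were not called. Whether these transcripts came from host or tumour cells was not tested. Called higher among these genes were 4, 4 and 4 without control replicates 1, 2 and 3 and 4 with limma-voom. The call of Dcn was lost when any 1 control was left out and with limma-voom, and that of Acta2 when any 1 control or tumour replicate 1 was left out and with limma-voom. Dcn was 12.8-fold higher without tumour replicate 2, and Lum was 12.4-fold and Acta2 6.64-fold higher without tumour replicate 1.

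Few endothelial genes were called. Of 12 endothelial genes, 1 was called lower and 0 higher, against 47.5% of all genes called, and their sum was 291, 264 and 273 CPM in the controls and 91.5, 477 and 183 CPM in the tumours. Tumour replicate 2 was the highest tumour for all 12 and replicate 1 had the lowest sum. Ly6c1, the one called, was at 28.6, 27.0 and 23.7 CPM in the controls and 2.33, 9.78 and 2.64 CPM in the tumours. Of 12 genes of blood-brain barrier vessels, 3 were lower (25%) and 2 higher (16.7%), against 22.9% and 24.6% of all genes. The tight junction gene Cldn5 was at 51.3, 47.3 and 45.6 CPM in the controls and 5.18, 19.6 and 11.8 CPM in the tumours, the thyroid hormone transporter Slco1c1 at 65.0, 63.0 and 61.3 CPM in the controls and 2.22, 9.34 and 1.29 CPM in the tumours and the drug pump Abcb1a at 32.9, 35.5 and 32.6 CPM in the controls and 2.57, 12.7 and 2.47 CPM in the tumours, all lower in each tumour. They fell 3.94-fold, 14.7-fold and 5.69-fold. The amino acid transporter Slc7a5, used widely by dividing cells, rose 3.36-fold and Foxf2 4.93-fold. Of 7 genes of leaky or sprouting vessels 1, Aplnr, was higher, at 1.79, 0.9496 and 0.953 CPM in the controls and 3.14, 51.4 and 11.04 CPM in the tumours. The count of barrier genes called lower became 1, 1 and 1 without control replicates 1, 2 and 3 and 5 without tumour replicate 3. Called lower among endothelial genes were 0, 0 and 0 without control replicates 1, 2 and 3, 3 without tumour replicate 2, 2 with limma-voom and 2 with limma-voom and a variance weight per group. The calls of Ly6c1 and Cldn5 were lost when any 1 control was left out, that of Abcb1a when any 1 control or tumour replicate 1 was left out, and that of Aplnr when any 1 control was left out and with limma-voom. Aplnr was 5.71-fold higher and Ly6c1 was 10.7-fold, Slco1c1 35.5-fold and Abcb1a 13.3-fold lower without tumour replicate 2.

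Of 16 genes of microglia and macrophages, 5 were called higher (31.25%) and 0 lower. The share called higher was not far from the 24.6% of all genes. Their sums were 291, 336 and 359 CPM in the controls and 617, 849 and 603 CPM in the tumours. Tmem119 alone made up 349.8 of the 603 CPM of tumour replicate 3. That tumour was the lowest for 13 of the 16, and its median member stood 0.04 log2 units above the control mean. In tumour replicates 1 and 2 the median member stood 1.27 and 1.91 log2 units above it. Cd68, of phagocytic cells, was at 3.88, 4.52 and 4.43 CPM in the controls and 27.5, 22.0 and 22.0 CPM in the tumours, even across tumours and 5.57-fold higher (log2 fold change 2.48, SE 0.28, edgeR adjusted p = 0.00107). The complement gene C1qc was at 12.9, 15.4 and 24.9 CPM in the controls and 64.8, 111 and 25.96 CPM in the tumours and Tmem119, of microglia, at 12.8, 13.1 and 13.1 CPM in the controls and 37.9, 36.9 and 349.8 CPM in the tumours, the first highest in tumour replicate 2 and the second in replicate 3. Lymphocyte genes were near 0 throughout. The 10 markers of T, B and natural killer cells summed to 1.04, 1.13 and 1.05 CPM in the controls and 0.881, 8.38 and 1.41 CPM in the tumours, none was tested, and the hosts lack a thymus. The count of these genes called higher became 1, 1 and 1 without control replicates 1, 2 and 3, 3, 3 and 11 without tumour replicates 1, 2 and 3, 8 with DESeq2, 3 with limma-voom and 3 against a minimum fold of 1.5. The call of C1qc was lost when any 1 control or tumour replicate 1 or 2 was left out, and that of Tmem119 when any 1 control was left out and with limma-voom. Tmem119 was 2.88-fold higher without tumour replicate 3.

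Antigen presentation and interferon genes were set apart by tumour replicate 2. Genes of MHC class I and antigen processing summed to 267, 302 and 338 CPM in the controls and 305, 2324 and 341 CPM in the tumours, and replicate 2 was the highest tumour for all 13. Of the 13, 3 were called higher, Erap1, H2-T23 and Tapbp, and 0 lower. The share called higher was 23.1%, close to the 24.6% of all genes. Tapbp, which loads peptides, was at 29.0, 37.5 and 38.6 CPM in the controls and 92.6, 195 and 41.9 CPM in the tumours (log2 fold change 1.65, SE 0.54, edgeR adjusted p = 0.0445). H2-K1, a class I heavy chain, was at 24.8, 27.6 and 38.0 CPM in the controls and 21.5, 602 and 72.7 CPM in the tumours and was not called (edgeR adjusted p = 0.0749). Of 17 interferon response genes, 3 were higher (17.6%) and 1 lower (5.88%), and 15 were highest in replicate 2. Both shares called were below the 24.6% and 22.9% of all genes. The RNA sensor gene Ddx58 was at 4.88, 4.21 and 7.10 CPM in the controls and 11.5, 85.3 and 13.7 CPM in the tumours and Bst2 at 2.34, 3.12 and 9.77 CPM in the controls and 15.3, 46.1 and 28.8 CPM in the tumours. Isg15 was at 1.71, 1.36 and 4.05 CPM in the controls and 2.43, 18.6 and 24.2 CPM in the tumours, where the groups overlapped, and Stat2 fell 3.23-fold. Called higher among class I genes were 0, 0 and 1 without control replicates 1, 2 and 3, 5 without tumour replicate 3, 6 with all 9 libraries in the fit and 5 with DESeq2. The count of interferon genes called higher became 0, 0 and 1 without control replicates 1, 2 and 3, 5 without tumour replicate 1, 1 with limma-voom and 1 against a minimum fold of 1.5. Called lower among interferon genes were 0, 0 and 0 without control replicates 1, 2 and 3, 0, 2 and 0 without tumour replicates 1, 2 and 3 and 0 against a minimum fold of 1.5. The calls of Erap1 and Bst2 were lost when control replicate 1 or 2 was left out, that of H2-T23 when any 1 control was left out, and that of Tapbp when any 1 control or tumour replicate 1 or 2 was left out, with no filter on low counts, with limma-voom and against a minimum fold of 1.5. The call of Ddx58 was lost when any 1 control was left out, with limma-voom and against a minimum fold of 1.5, that of Isg15 when any 1 control or tumour replicate 2 or 3 was left out, with no filter on low counts, with limma-voom, with limma-voom and a variance weight per group and against a minimum fold of 1.5, and that of Stat2 when any 1 control or tumour replicate 1 or 3 was left out and against a minimum fold of 1.5. H2-K1 passed the test when tumour replicate 1 was left out, with all 9 libraries in the fit and with DESeq2. H2-T23 was 2.34-fold, Tapbp 1.91-fold and Ddx58 2.33-fold higher and Stat2 was 5.54-fold lower without tumour replicate 2, and Bst2 was 10.9-fold and Isg15 9.69-fold higher without control replicate 3.

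Markers of epithelium and of choroid plexus were spread unevenly over the tumours. Of 9 epithelial and keratinocyte genes, 5 were higher (55.6%) and 0 lower, against 24.6% of all genes called higher. Their sum was 12.8, 23.8 and 13.8 CPM in the controls and 30.6, 137 and 1309.9 CPM in the tumours, and 8 were highest in replicate 3. Dsp, of desmosomes, was at 0.250, 1.36 and 0.572 CPM in the controls and 9.48, 71.8 and 905 CPM in the tumours. The basal keratins Krt5 and Krt14 reached 14.7, 1.53 and 134 CPM and 1.198, 1.45 and 45.4 CPM in the tumours and at most 0.143 and 0.191 CPM in the controls. Epcam and Lad1 had 1.06, 1.45 and 31.0 CPM and 0.634, 1.36 and 79.9 CPM. Dsp, Krt5 and Krt14 could pass the count filter only through the tumours, which fixed their direction in advance. Of 9 choroid plexus and ependyma genes, 1 was called, the water channel Aqp1, at 0.167, 1.09 and 0.143 CPM in the controls and 443, 262 and 18.5 CPM in the tumours (log2 fold change 9.01, SE 1.57, edgeR adjusted p = 0.00492), and 8 of 9 were highest in replicate 2. Skeletal muscle genes gave 0 calls of 3 tested, with Acta1 at 1.38, 1.45 and 0.572 CPM in the controls and 0.740, 0.526 and 7.28 CPM in the tumours and Mylpf at 1.001, 0.9496 and 0.715 CPM in the controls and 0.458, 0.702 and 1.997 CPM in the tumours, and the one red cell gene tested, Alas2, at 22.4, 8.999 and 11.2 CPM in the controls and 0.176, 1.84 and 9.16 CPM in the tumours, was not called (edgeR adjusted p = 0.211). The count of epithelial genes called higher became 0, 1 and 0 without control replicates 1, 2 and 3, 8 without tumour replicate 1, 8 with all 9 libraries in the fit and 2 with limma-voom. The call of Dsp was lost when control replicate 1 or 3 was left out and with limma-voom, those of Krt5 and Krt14 when any 1 control was left out, and that of Epcam when any 1 control was left out and with limma-voom. The call of Lad1 was lost when any 1 control or tumour replicate 3 was left out, with limma-voom, with limma-voom and a variance weight per group and against a minimum fold of 1.5. Alas2 passed the test when tumour replicate 3 was left out. Dsp was 55.7-fold, Krt14 16.4-fold, Epcam 5.43-fold and Lad1 2.58-fold higher without tumour replicate 3, and Aqp1 was 1484-fold higher without control replicate 2.

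**Figure D4:**
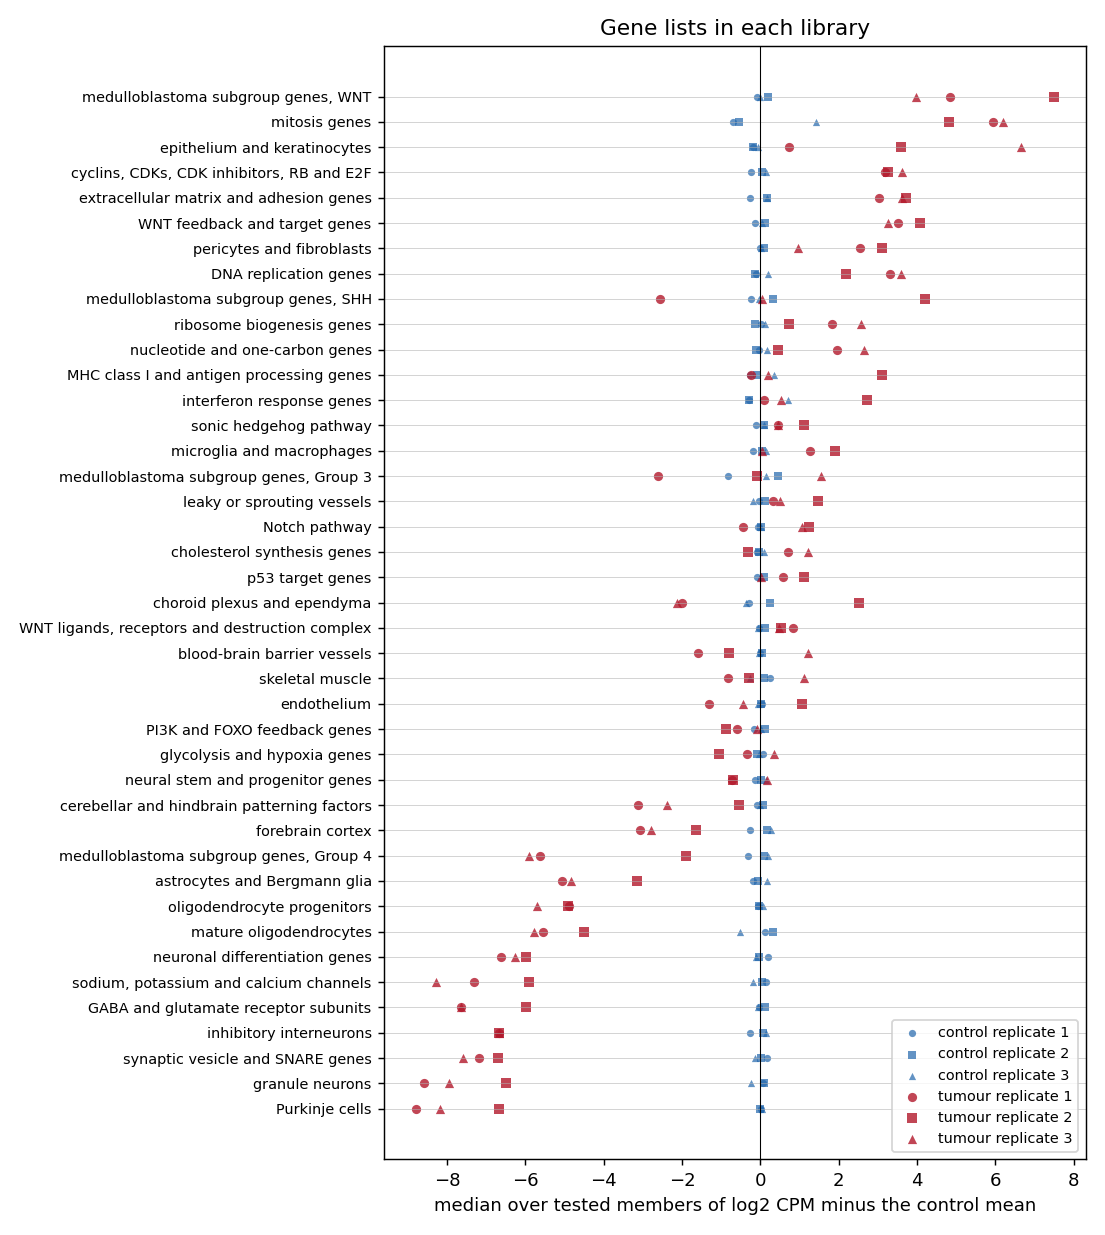
Where each library stands on each gene list. The x axis is the median over the tested members of log2 CPM minus the mean of the controls, so 0 is the control mean; blue marks are controls, red marks tumours and the shape gives the replicate. For division, WNT target and neuronal genes the 3 tumours differ among themselves but all lie far from the controls on the same side. They spread more widely for epithelial, MHC class I, choroid plexus and SHH subgroup genes.

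The 3 tumours differed among themselves. Among genes called higher, the tumour with the highest level was replicate 1 for 36.4%, replicate 2 for 25.2% and replicate 3 for 38.4%. Among genes called lower, the lowest was replicate 2 in 16.5%, against 37.5% and 46.0% for replicates 1 and 3. Replicate 2 had the lowest summed level of mitosis, DNA replication and ribosome biogenesis genes among the tumours and the highest of synaptic, granule, Purkinje, mature oligodendrocyte, astrocyte, MHC class I and endothelial genes. A single transcript, A2m, which encodes the protease inhibitor alpha-2-macroglobulin, took 3.19% of its counts: it was at 173, 140.1 and 278 CPM in the controls and 61.6, 30825 and 16.6 CPM in the tumours and was not called (edgeR adjusted p = 0.114). What part cells other than tumour cells had in these values was not tested.

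Genes of the sex chromosomes also separated the groups. Xist, which is expressed from the inactive X of females, was at 24.5, 61.4 and 27.0 CPM in the controls and 1.87, 1.58 and 0.881 CPM in the tumours, 25.8-fold lower (log2 fold change -4.69, SE 0.55, edgeR adjusted p = 0.00127). The Y-linked genes Ddx3y, Eif2s3y and Uty were at 61.2, 4.87 and 39.6, at 30.6, 3.25 and 26.6 and at 15.5, 1.32 and 12.9 CPM in the tumours and at most 0.858, 0.524 and 0.143 CPM in the controls, and all 3 were called higher. Control replicates 1 and 2 had no count of Ddx3y or Eif2s3y. Tumour replicate 2 held the least of them. Ddx3y, Eif2s3y and Uty could pass the count filter only through the tumours, which fixed their direction in advance. Kdm5d, also Y-linked, had 395 counts in the tumours and 3 in the controls and did not pass the count filter. The labels give no sex, and sex and group cannot be told apart here. These genes were chosen after their values were seen. The call of Xist was lost with limma-voom and a variance weight per group, and those of Ddx3y and Eif2s3y when control replicate 1 or 2 was left out.

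**Figure D5:**
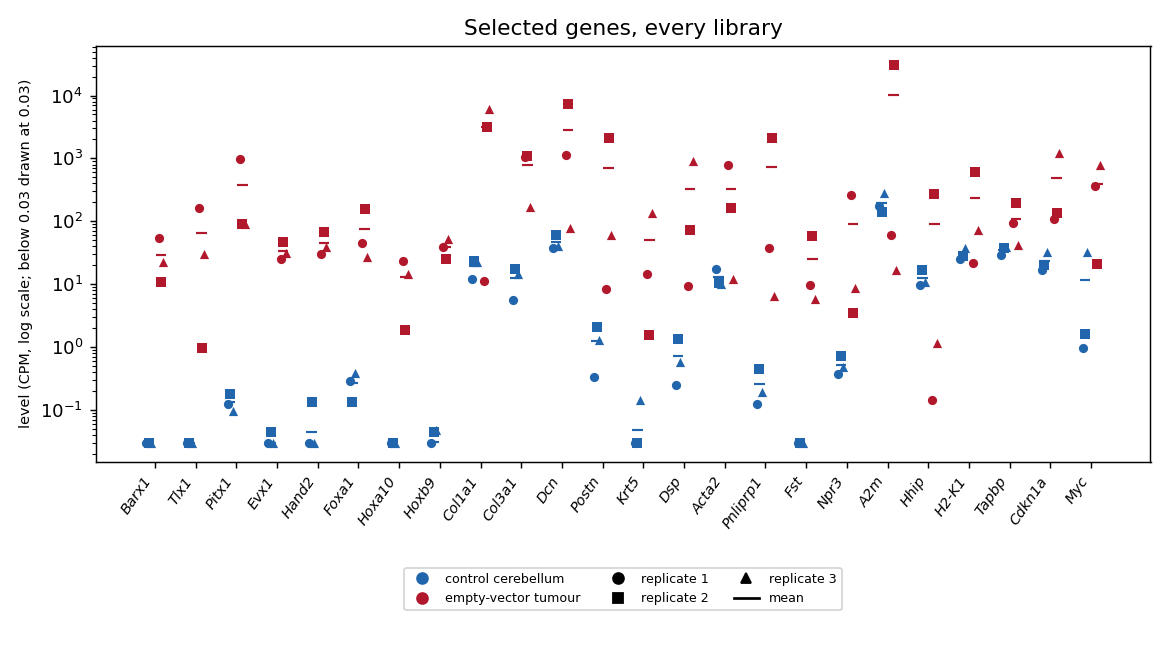
Levels of selected genes in every library, as in the plot of WNT genes: CPM on a log scale, values below 0.03 drawn at 0.03, blue controls, red tumours, shape for the replicate and a bar for the mean. Pitx1, Evx1 and Hand2 are high in all 3 tumours, while Postn, Pnliprp1 and A2m are highest in replicate 2 and Krt5, Dsp and Cdkn1a in replicate 3.

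Finally, the genes named by rule here were set against the MycT58A tumours, in a fit of all 9 libraries that shares the 3 empty-vector libraries with the comparison above and scales them slightly differently. Between the tumour groups 8.3% of genes were called, and of the 177 named genes 8 were higher and 17 lower in MycT58A. Most of the 177 were chosen by their values in these same empty-vector libraries. Their counts and directions therefore cannot be measured against the 8.3% of all genes. Axin2 was at 216, 212 and 198 CPM in the empty-vector tumours and 216, 187 and 229 CPM in the MycT58A tumours and was not called (log2 fold change 0.01, SE 0.21, edgeR adjusted p = 0.968). Wnt5a was at 209, 169 and 176 CPM in the empty-vector tumours and 56.7, 58.3 and 54.6 CPM in the MycT58A tumours (log2 fold change -1.70, SE 0.26, edgeR adjusted p = 0.013) and Ccnd1 at 339, 739.5 and 426 CPM in the empty-vector tumours and 174, 208 and 161 CPM in the MycT58A tumours (log2 fold change -1.47, SE 0.29, edgeR adjusted p = 0.0261), both lower with MycT58A. Cd68 and Pdgfrb were lower too, the former at 26.7, 21.3 and 21.3 CPM in the empty-vector tumours and 8.81, 5.75 and 7.37 CPM in the MycT58A tumours (log2 fold change -1.66, SE 0.26, edgeR adjusted p = 0.0134). Both are single members of their marker lists. The other members are not given here for MycT58A, so no difference in a cell type is read from them. Mthfd2 was at 53.4, 59.9 and 93.8 CPM in the empty-vector tumours and 119, 187 and 137 CPM in the MycT58A tumours, higher with MycT58A (log2 fold change 1.10, SE 0.27, edgeR adjusted p = 0.0442).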

How the data were processed

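RNA of 3 normal cerebella and 3 empty-vector tumours was sequenced, and 3 MycT58A tumours served for one side comparison. The deposited table holds whole-number read counts per gene symbol, not normalized by the authors, with 1 column for each library. The submitters' processing notes name bcl2fastq, TopHat, edgeR and mm10. The read counter, its strand setting and the annotation were not given in the sources used here, so antisense or overlapping genes cannot be told apart and near-identical copies may share reads.

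Counts were fitted in edgeR 4.0.16 (R 4.3.3, limma 3.58.1). Genes kept by filterByExpr (minimum count 10, minimum total 15) were scaled by trimmed mean of M values and tested by quasi-likelihood over the 6 libraries compared, with Benjamini-Hochberg adjustment over all genes tested. MycT58A libraries were left out of this fit because earlier results on these data give them a smaller spread. The code was tested on simulated data. For a group with no count, 3 counts over its libraries served as the limit, and a group with 1 to 3 counts gives a ratio with an exact 95% interval. Both cover counting error only. Alternatives were DESeq2 1.42.0, limma-voom, other scalings and filters, a minimum fold of 1.5, all 9 libraries and leaving out each library.

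The members, lists and tests were chosen with earlier results of these data known. The 44 lists hold 685 symbols, 683 of them in the table and 30 on more than 1 list. A rule named 177 genes: the engineered genes, the 10 highest and 10 lowest fold changes among called genes without overlap whose higher group averaged 5 CPM or more, the 8 greatest rises and 8 greatest falls of mean CPM, and from each list the 3 called members of smallest p in the direction with more calls, 2 in the other direction, or the 2 most abundant where none was called. Lists with fewer than 3 tested members name those. Predicted genes were left out of the rankings, and a few of the genes so named are not reported here. Other named genes were chosen after their values were seen. Of 24444 symbols, 23695 matched GENCODE M21, the source of the coordinates, and 5000 had no count in the 6 libraries. Promoters came from RefSeq. Python 3.11.15, scipy 1.17.1 and matplotlib 3.10.9 were used.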

Additional observations from a re-analysis of the deposited data

How the results depend on the processing

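No paired analysis was possible because the replicate numbers follow only the order of deposition and the labels tie no tumour to a control. The 7005 calls became 4073 to 9064 when each library was left out in turn, with 1734 to 4625 higher and 2261 to 4439 lower, and all 3 values without a control were below those without a tumour. Over the other 9 alternatives the calls ranged from 5439 (minimum fold of 1.5) to 8643 (all 9 libraries), all within 1.5 times. With limma-voom the median log2 fold change moved by -0.13 and 45.5% of calls were higher, against 51.8%. Of 169 named genes called, 126 kept the call under each alternative run for them, 15 for most and 14 for Tbr1, which a filter at 1 CPM removed, and 43 lost it when at least 1 of the single libraries was left out. The fold of 67 moved by more than 1.5 times, for 61 most with a tumour library, and 700 of 840 counts of list members were within 1.5 times.

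Directions turned for 6 genes that were not called. The log2 fold change of Pik3ca, -0.08 with all libraries, became -0.62, 0.07 and 0.15 without empty-vector tumour replicates 1, 2 and 3. Leaving out each library in turn gave -4.31 to 3.45 for Hhip, -2.34 to 6.29 for A2m and -0.69 to 2.92 for Sfrp1, each lowest without tumour replicate 2, where Hhip and A2m passed the threshold as lower (edgeR adjusted p = 0.0111 and 0.0253). It gave -0.83 to 1.82 for Acta1 and -0.62 to 0.58 for Mylpf, both lowest without tumour replicate 3. With limma-voom and with a weight per group Hhip was at -1.80 and -1.83, and Mylpf at -0.079 and -0.098. The cause of these changes was not tested.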
